A study of Mus musculus with 4 samples.

Results

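The genes described here are 10 genes of the NRF2 pathway and of carbonyl reduction, out of 50600 gene rows in the deposited table: Nfe2l2, Keap1, Nqo1, Hmox1, Gclc, Gclm, Srxn1, Txnrd1, Cbr1 and Cbr3. They were chosen by name, and each name matched exactly 1 row. Cbr3 was included because of its fall in the cells deficient in Myh9, so its values are a description and carry no test. The other 9 were included as parts of the pathway, at a time when results of these data were known.

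The study measured RNA by sequencing in OG2ES, a line of mouse embryonic stem (ES) cells, in 4 libraries. Of these, 2 came from cells of genotype WT and 2 from cells of genotype Myh9 KO, which lack or are short of Myh9, which encodes a heavy chain of non-muscle myosin. All 4 were grown in mES medium with 2i, the inhibitor pair that keeps mouse ES cells naive, with no other treatment, and the tissue label of every library is inner cell mass. How Myh9 was disrupted, how many clones were used and whether the replicates were separate cultures are not given in the sources used here, so p-values reflect only how far replicate libraries lay apart, possibly for technical reasons, and a trait of the KO line cannot be told apart from loss of Myh9.

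NRF2, the product of Nfe2l2, is a transcription factor that switches on genes against oxidants and reactive electrophiles. In unstressed cells KEAP1 holds the NRF2 protein and hands it to a CUL3 ubiquitin ligase for destruction. Oxidants modify cysteines of KEAP1, NRF2 accumulates, pairs with small MAF proteins and binds antioxidant response elements near its target genes. Because the control acts largely on protein stability, transcript values of Nfe2l2 and Keap1 do not measure NRF2 activity. Carbonyl reductases use NADPH to reduce ketones, quinones and aldehydes to alcohols, and CBR3 is a close paralog of CBR1.

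The deposited values are whole-number scores, whose sums are nearly equal in all libraries (992098 to 992317). They are not read counts, so the depth behind each value is unknown, and levels are compared between libraries and never between genes. The genotype check held in direction: Myh9 read 83 and 100 in the WT libraries and 9 in each Myh9 KO library (log2 fold change -3.20 ± 0.12 SE, adjusted p = 0.00675 by limma, not called without Myh9 KO 1 or Myh9 KO 2). The 7 ES cell markers (Pou5f1, Sox2, Nanog, Zfp42, Dppa5a, Esrrb and Tdgf1) were present in every library. Their values summed to 9467 and 9700 for WT against 8243 and 8041 for Myh9 KO, with Sox2 and Dppa5a called lower. The fall of this sum lay mainly in Dppa5a, whose group mean went from 4798 down to 3321.5. Within the list, 4 log2 fold changes were negative and 3 positive (Pou5f1, Nanog and Zfp42), with a median of -0.05. Nanog (0.08) lies on chromosome 6 and Zfp42 (0.46) on chromosome 8, whose tested genes had median log2 fold changes of 0.45 and 0.21. Of 10 feeder fibroblast markers, 7, among them Col1a1, Col1a2 and Col3a1, were listed at 0 in every library, and the list summed to 54 and 56 for WT against 40 and 41 for Myh9 KO, with 1 (Fstl1) called lower. The part of these markers in the results was not tested, and in such bulk samples fewer cells of a type and less RNA per cell cannot be told apart. Genes that dividing cells use, such as Mki67, Rock1 and Rock2, were also listed at 0 throughout, so a listed 0 does not show absence.

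The sequences just upstream of 5 members are shown as a description: the paralogs Cbr3 and Cbr1, the regulator Nfe2l2, and the classic targets Nqo1 and Srxn1. Their part in the results was not tested. Each is the 250 bases before the gene's start in RefSeq, on GRCm38.p6, the assembly of mm10, read 5′ to 3′ along the gene. RefSeq starts can differ by some bases from those of the deposited rows. Capitals mark a match to the core of the antioxidant response element (TGACNNNGC) or to the AP-1 element (TGANTCA), on either strand. The patterns overlap: TGACTCA followed by GC matches both.
Cbr3 (chr16:93682969-93683218, plus strand): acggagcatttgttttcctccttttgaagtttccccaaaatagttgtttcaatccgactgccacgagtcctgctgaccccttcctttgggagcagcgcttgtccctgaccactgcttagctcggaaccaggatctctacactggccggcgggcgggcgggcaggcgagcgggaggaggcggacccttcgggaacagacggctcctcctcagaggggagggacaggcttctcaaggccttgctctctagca
Cbr1 (chr16:93607587-93607836, plus strand): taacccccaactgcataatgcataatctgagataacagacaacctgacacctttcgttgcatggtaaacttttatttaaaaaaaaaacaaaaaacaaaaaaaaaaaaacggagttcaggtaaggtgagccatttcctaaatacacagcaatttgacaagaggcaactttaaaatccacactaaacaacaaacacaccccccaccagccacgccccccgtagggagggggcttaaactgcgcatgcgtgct
Nfe2l2 (chr2:75704664-75704913, minus strand): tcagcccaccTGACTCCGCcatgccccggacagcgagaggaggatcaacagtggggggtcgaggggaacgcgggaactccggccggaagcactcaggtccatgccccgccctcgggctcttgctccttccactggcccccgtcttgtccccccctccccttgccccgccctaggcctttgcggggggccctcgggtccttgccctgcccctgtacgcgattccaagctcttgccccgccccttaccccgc
Nqo1 (chr8:107403206-107403455, minus strand): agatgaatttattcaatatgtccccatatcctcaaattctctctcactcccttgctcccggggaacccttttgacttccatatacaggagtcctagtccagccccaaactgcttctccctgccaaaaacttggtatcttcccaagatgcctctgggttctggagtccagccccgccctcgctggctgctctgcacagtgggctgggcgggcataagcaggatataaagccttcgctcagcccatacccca
Srxn1 (chr2:152105274-152105523, plus strand): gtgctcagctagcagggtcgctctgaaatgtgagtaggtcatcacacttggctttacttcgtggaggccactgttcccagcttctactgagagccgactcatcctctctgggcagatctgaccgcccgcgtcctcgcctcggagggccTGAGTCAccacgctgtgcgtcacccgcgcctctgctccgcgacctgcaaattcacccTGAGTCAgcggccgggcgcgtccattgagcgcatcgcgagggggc

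RefSeq starts were found for 8 of the 10 members, in 10 windows, since Txnrd1 has 3. The entries for Hmox1 and Gclc were missing. The response element core was found in 3 of the 10 windows, in Nfe2l2 at 240 bases before the start, in Gclm at 134 bases and in 1 of the Txnrd1 windows at 92 bases. Of 32851 windows of the same length over all RefSeq genes, 10.2% hold it. The AP-1 element was found in 1 window, that of Srxn1, at 102 and at 45 bases before the start, against 6.75% of all windows. The match at 45 bases is followed by GC. It differs from the searched response element core only in G for C after TGA, and a core with G there was not searched. The windows of Cbr3 and Cbr1 hold neither element. They differ in base composition, with 59.6% G and C for Cbr3 and 41.6% for Cbr1, and Cbr3 has the GC box (GGGCGG) at 101 and at 97 bases before the start, in matches that overlap. The GC box stands in 7 of the 10 windows and in 32.7% of all windows. The TATA box (TATAAA) is in the Nqo1 window at 29 bases before the start, and in 12.4% of all windows. These matches describe the letters only, and bases further upstream were not searched.

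Of the 9 members other than Cbr3, 3 fell in Myh9 KO (Nfe2l2, Keap1 and Nqo1), 1 rose (Hmox1) and 5 were not called. Over all 11231 genes tested, 5.81% were called lower and 5.13% higher. A gene is called where its adjusted p is under 0.05 in limma's test on log2(value + 1), and again as the median over 25 fits after a random decimal between 0 and 1 was added to each value. The added decimals address the loss of decimals in the table, which leaves some genes with no spread between replicates. Fold changes are Myh9 KO minus WT on the log2(value + 1) scale, with standard errors (SE) from the same fit and n = 2 libraries per group throughout. The median log2 fold change of the 9 members was -0.34, beside 0 over all tested genes, and 8 of the 9 were negative (7 of 9 without Myh9 KO 1, where Gclm turned). Of all 11231 tested genes, 5521 were negative and 5297 positive. In 7 of the 9, both Myh9 KO values lay below both WT values, and in 1 both lay above. Over all tested genes those shares were 27.3% and 26.2%, so such separation was common in these data.

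Among the members, the call of Hmox1 held with any 1 library left out, at limma adjusted p of 0.0401 to 0.0461. Nfe2l2, Keap1 and Nqo1 kept their sign but lost the limma call each time, with adjusted p of 0.112 to 0.132, 0.0717 to 0.124 and 0.0855 to 0.159 over the 4 omissions. With random decimals their adjusted p over the same omissions was at most 0.0241, 0.0465 and 0.01.

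**Figure D1:**
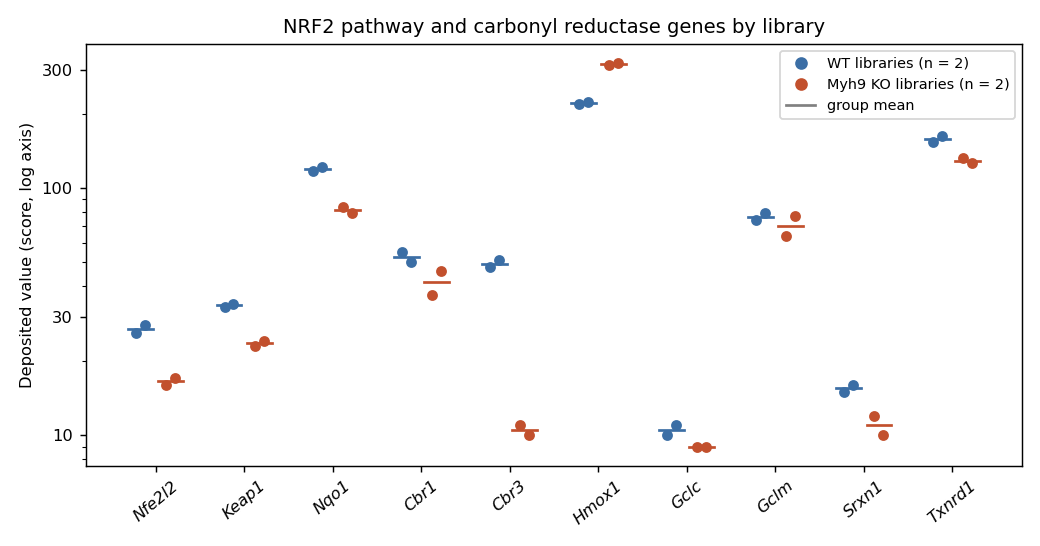
Deposited values (score, log axis) of the 10 genes in each library, with WT in blue, Myh9 KO in red, 2 libraries per group as points and bars at the group mean. Hmox1 is the gene whose Myh9 KO points, at 316 and 320, lie above its WT points; Cbr3 drops from 48 and 51 to 11 and 10, and the groups of Gclm overlap.

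Nfe2l2, the gene of NRF2 itself (ENSMUSG00000015839, chromosome 2, 75675513 to 75704641, minus strand), had values of 26 and 28 in WT and of 16 and 17 in Myh9 KO. The groups did not overlap, and the mean in Myh9 KO was 61.1% of the WT mean. The log2 fold change was -0.68 ± 0.06 (SE, adjusted p = 0.0279 by limma, and 0.00272 with random decimals). Keap1, the sensor that marks NRF2 for destruction (ENSMUSG00000003308, chromosome 9, 21229730 to 21239361, minus strand), had values of 33 and 34 in WT and of 23 and 24 in Myh9 KO. It was lower in both Myh9 KO libraries, at 70.1% of the WT mean, with a log2 fold change of -0.49 ± 0.04 (SE, adjusted p = 0.0205 by limma). The activator and its inhibitor were thus both lower at the transcript level. An antisense transcript, Gm16754, overlaps Keap1 and was listed at 0 or 1, and the library protocol describes no step that keeps strand.

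Nqo1, a quinone reductase widely used as a readout of NRF2 (ENSMUSG00000003849, chromosome 8, 107388225 to 107403206, minus strand), had values of 117 and 122 in WT and of 84 and 79 in Myh9 KO. The groups did not overlap, and the log2 fold change was -0.55 ± 0.05 (SE, adjusted p = 0.0274 by limma). After each library's trend on GC content and length was removed it was -0.33 (limma adjusted p = 0.0151). Its GC content is 46.7%, and the tested genes between 45.0% and 49.0% GC moved by a median of -0.07 on the same scale.

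Hmox1, heme oxygenase 1, which breaks heme down to biliverdin, iron and carbon monoxide (ENSMUSG00000005413, chromosome 8, 75093621 to 75100589, plus strand), had values of 219 and 223 in WT and of 316 and 320 in Myh9 KO. Both Myh9 KO libraries stood above both WT libraries, at 144% of the WT mean. The log2 fold change was 0.52 ± 0.02 (SE, adjusted p = 0.00494 by limma), opposite in sign to the 9 other members. Hmox1 is also a target of BACH1, a repressor that heme inactivates. Bach1 itself had low values of 3 and 4 in WT and of 2 and 2 in Myh9 KO and was not called (log2 fold change -0.58, limma adjusted p = 0.121).

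Nqo1 and Hmox1 both lie on chromosome 8, whose 646 tested genes had a median log2 fold change of 0.21, with 12.5% called higher and 1.7% lower. Hmox1 thus moved with its chromosome and Nqo1 against it. With the median of each chromosome removed from each library, an alternative chosen after seeing the data, Hmox1 had a log2 fold change of 0.32 (limma adjusted p = 0.0167) and Nqo1 one of -0.75 (limma adjusted p = 0.00801). Both calls held. Chromosome 6 stood out more, with a median of 0.45 over 555 tested genes, but holds no member. The medians of the other chromosomes that hold members ran from -0.09 to 0.

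**Figure D2:**
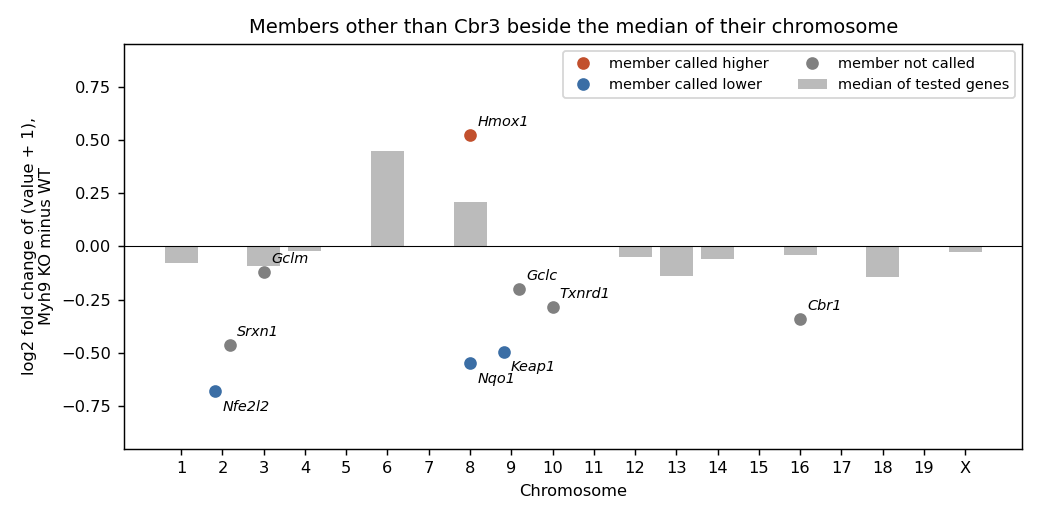
Grey bars give the median log2 fold change (Myh9 KO minus WT, of value + 1) of the tested genes of each chromosome, and points the 9 members other than Cbr3 on their own chromosomes, coloured by call. Hmox1 (0.52) lies above and Nqo1 (-0.55) below the chromosome 8 median of 0.21.

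The remaining members, of the glutathione and thioredoxin arms, were not called. Gclc, the catalytic subunit of glutamate-cysteine ligase, which makes the precursor of glutathione (chromosome 9, 77754535 to 77794485), had values of 10 and 11 in WT and of 9 and 9 in Myh9 KO. The groups differed by as little as 1 unit and the gene was not called (a log2 fold change of -0.20 ± 0.06 SE, adjusted p = 0.156 by limma). Gclm, the modifier subunit of the same enzyme (chromosome 3, 122245557 to 122270732), had values of 74 and 79 in WT and of 64 and 77 in Myh9 KO. Here the groups overlapped, and the 95% confidence interval of the fold ran from 0.684 to 1.24 (limma adjusted p = 0.535). A transcribed pseudogene on the same strand, Gm6061, overlaps Gclm in the GENCODE vM21 annotation and had values of 4 and 8 in WT but of 27 and 9 in Myh9 KO 1 and 2. Gclm was lowest in Myh9 KO 1, where Gm6061 was highest, and the sums of both rows were 78 and 87 in WT, then 91 and 86. Of the 50-base words of Gclm, 4.58% occur in other genes, with the most matches in Ppia. The share that occurs in Gm6061 is not given. Gm6061 was looked at after its values were seen, and whether reads were divided between these rows was not tested.

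Txnrd1, the cytosolic thioredoxin reductase (chromosome 10, 82833951 to 82897712), had values of 153 and 162 in WT and of 132 and 126 in Myh9 KO. The groups did not overlap, but the gene missed the threshold in the limma test (a log2 fold change of -0.29 ± 0.05 SE, adjusted p = 0.0701) and passed it with random decimals (adjusted p = 0.0103). Srxn1, sulfiredoxin, which repairs overoxidised peroxiredoxins (chromosome 2, 152105516 to 152111376), had values of 15 and 16 in WT and of 12 and 10 in Myh9 KO. It was likewise lower in both Myh9 KO libraries and passed only with random decimals (a log2 fold change of -0.46 ± 0.11 SE, adjusted p = 0.121 by limma, and 0.0408 with random decimals). After removal of the trend on GC content and length, Txnrd1 and Srxn1 passed both tests, with limma adjusted p of 0.0162 and 0.0422 at log2 fold changes of -0.32 and -0.57.

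Cbr3 had the lowest Myh9 KO to WT ratio of the members. Its WT values were 48 and 51, and those of Myh9 KO were 11 and 10 (ENSMUSG00000022947, chromosome 16, 93683215 to 93690990, plus strand), so that the Myh9 KO mean was 21.2% of the WT mean, a log2 fold change of -2.14. Among the 6584 tested genes that averaged 10 or more, 34 others had as large a fall. Cbr1, its paralog upstream on the same strand (ENSMUSG00000051483, chromosome 16, 93607837 to 93610505), had values of 55 and 50 in WT and of 37 and 46 in Myh9 KO. Cbr1 was lower in both Myh9 KO libraries but they differed from each other by 9 units, and the gene was not called (a log2 fold change of -0.34 ± 0.15 SE, adjusted p = 0.253 by limma). The 95% confidence interval of the Cbr1 fold ran from 0.554 to 1.13. The difference between the paralogs was not tested, since Cbr3 was chosen for its fall. The paralogs share few exact words with other genes: of the 50-base words of Cbr3 transcripts, 0.0797% occur in another gene, and of those of Cbr1, 1.85%. How well the reads separated the paralogs was not tested. GENCODE vM21 places the start of Cbr1 further upstream than the deposited row, and the other 9 members have the same coordinates in both.

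Around this pair the values did not move as a block. Setd4, a SET-domain methyltransferase gene on the opposite strand, points away from Cbr1. In the deposited coordinates 3773 bases lie between the starts of these genes. Setd4 had values of 11 and 12 for WT against 23 and 22 for Myh9 KO. It rose, with both Myh9 KO values above both WT values (a log2 fold change of 0.91 ± 0.06 SE, adjusted p = 0.0182 by limma). Between Cbr1 and Cbr3 lie 72709 bases with no gene that reached a mean value of 1. On the far side of Cbr3, after 20916 bases, comes Dopey2, a gene of endosomal trafficking, with values of 4 and 6 in WT and of 5 and 5 in Myh9 KO. The noncoding 2310043M15Rik, antisense within Dopey2, fell from 16 and 15 to 5 and 5 (a log2 fold change of -1.46 ± 0.04 SE, adjusted p = 0.00449 by limma). Of its 50-base words 25.9% occur in other genes, mainly Dopey2, and without strand the reads of the overlap cannot be told apart. Morc3 (5 and 6, then 5 and 3), Rcan1, a calcineurin regulator (35 and 31, then 27 and 26), and Smim11 (41 and 34, then 43 and 41) were not called. The call of Setd4 was lost without any 1 of the 4 libraries and that of 2310043M15Rik without Myh9 KO 1 or Myh9 KO 2, with signs kept.

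**Figure D3:**
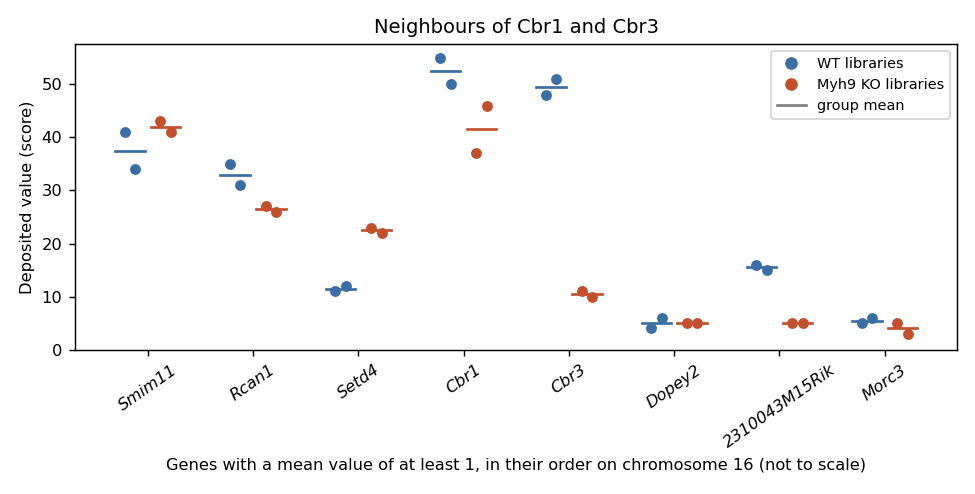
Deposited values (score, linear axis) of Cbr1, Cbr3 and the nearest 3 tested genes on each side, in gene order along chromosome 16 and not to scale; WT is blue, Myh9 KO red, points are libraries and bars group means. Setd4 is higher in Myh9 KO (23 and 22), Cbr3 and 2310043M15Rik are lower, and Dopey2 overlaps between groups.

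The 3 genes whose profile over the 4 libraries was nearest that of Cbr3, by Euclidean distance of centred log2 values among genes with a mean of at least 10, were Gm37697, Nefl and Marveld1. Gm37697 had values of 34 and 36, then 8 and 8 (distance 0.16). Nefl, the neurofilament light chain, had 23 and 27, then 6 and 6 (distance 0.28), and Marveld1 had 24 and 22, then 6 and 5 (distance 0.30). They lie on chromosomes 2, 14 and 19. With 4 libraries in 2 groups, a near profile means little more than a fall of like size.

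The other genes of the pathway were taken from 7 lists of 84 genes in all, of which 64 reached the filter of a mean value of at least 1, 16 were listed at 0 in every library and 4 had values above 0 but under the filter. Of the 64, 3 were higher and 10 lower in Myh9 KO, and 51 were not called, against 5.13% higher and 5.81% lower over all tested genes; the higher count is near that background. The median log2 fold change was -0.05, beside 0 over all tested genes. Of the lower calls, 5 were in the glutathione list, 2 in the NADPH list and 1 each in the thioredoxin, carbonyl and quinone lists. Of the higher calls, 2 were in the heme and iron list and 1 in the carbonyl list. Leaving out any 1 library reduced both the higher and the lower calls. In the main fit 27 of the 64 had an unadjusted limma p under 0.05, beside 3734 of all 11231 tested genes.

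**Figure D4:**
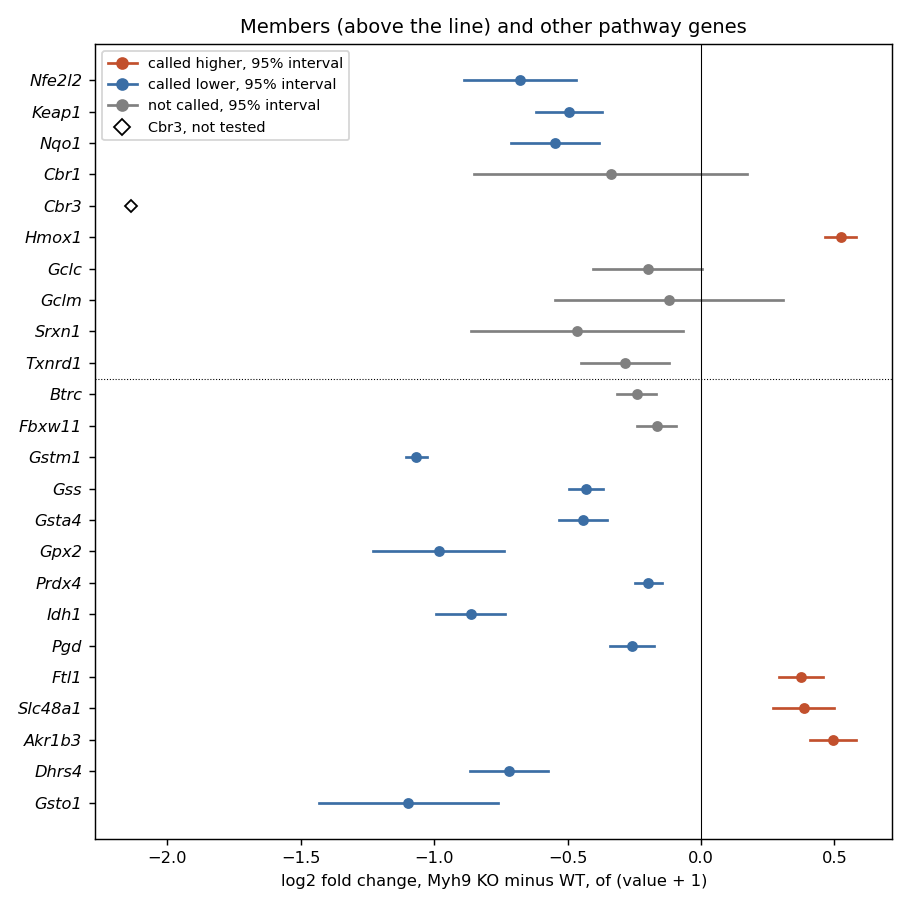
Log2 fold changes (Myh9 KO minus WT, of value + 1) with 95% confidence intervals from limma for the 10 members, above the dotted line, and the other pathway genes named by rule, below it; colours give the call and the open diamond is Cbr3, drawn with no interval. Most called genes lie left of 0, with Gsto1 and Gstm1 near -1.1, while Hmox1, Ftl1, Slc48a1 and Akr1b3 lie between 0.37 and 0.52.

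Of 15 regulators and partners of NRF2, 13 were tested and none was called by both tests. Limma alone called 2 lower, random decimals alone called 1 lower (Gsk3b, named after its value was seen), and 4 had an unadjusted limma p under 0.05. Such a p was common, in 3734 of all 11231 tested genes. Btrc, a substrate receptor of the ubiquitin ligase that acts on NRF2 without KEAP1, had values of 12 and 12 in WT and of 10 and 10 in Myh9 KO, with limma adjusted p = 0.0274 and 0.233 with random decimals. Its relative Fbxw11 had 40 and 41, then 36 and 36 (limma adjusted p = 0.0472, and 0.171 with random decimals). In both genes the Myh9 KO replicates had equal values. The list median was -0.16, and 11 of the 13 log2 fold changes were negative, beside 5521 of all 11231 tested genes.

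Of 19 genes of glutathione synthesis, conjugation and export, 13 were tested, 5 fell and none rose, with a list median of -0.29. Over all tested genes 5.81% were called lower and 5.13% higher. The median was -0.13 without Myh9 KO 2 and -0.16 without WT 2, and -0.42 both without WT 1 and without Myh9 KO 1. Gstm1, a mu-class glutathione transferase, fell from 144 and 143 to 68 and 68 (a log2 fold change of -1.07 ± 0.01 SE, adjusted p = 0.00111 by limma), a call that held with any 1 library left out. Of its 50-base words 18.9% occur in other genes. Gpx2, a glutathione peroxidase and known NRF2 target, fell from 37 and 36 to 19 and 17 (a log2 fold change of -0.98 ± 0.07 SE). Gsta4, which conjugates lipid-derived 4-hydroxynonenal, fell from 504 and 494 to 373 and 361 (a log2 fold change of -0.44 ± 0.03 SE, and -0.25 after removal of the trend on GC content and length). Gss, glutathione synthetase, fell from 63 and 63 to 46 and 47 (a log2 fold change of -0.43 ± 0.02 SE). The call of Gsta4 was lost without any 1 library and those of Gpx2 and Gss without WT 1 or WT 2. Gstm2, named after its value was seen as the remaining call, fell from 61 and 64 to 39 and 42. The cystine carrier gene Slc7a11, another NRF2 target, was listed at 0 in all 4 libraries.

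Of 8 thioredoxin and peroxiredoxin genes 1 was called, Prdx4, a peroxiredoxin of the endoplasmic reticulum, which fell from 100 and 101 to 88 and 87. Its log2 fold change of -0.20 ± 0.01 (SE, adjusted p = 0.021 by limma) turned to 0.07 after removal of the trend on GC content and length (limma adjusted p = 0.348), and the call was lost without any 1 library. Of 6 genes of NADPH supply, 2 fell and none rose. For both lists the background is 5.81% called lower and 5.13% higher over all tested genes. Idh1, cytosolic isocitrate dehydrogenase, fell from 86 and 83 to 47 and 45 (a log2 fold change of -0.86 ± 0.04 SE, adjusted p = 0.00909 by limma), with the call lost without WT 1, WT 2 or Myh9 KO 2. Pgd, of the pentose phosphate pathway, fell from 333 and 340 to 277 and 285 (a log2 fold change of -0.26 ± 0.02 SE), with the call lost without any 1 library.

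The heme and iron list, which holds the genes next to Hmox1 in function, had a median log2 fold change of 0.28. Of its 7 tested genes 2 rose and none fell, beside 5.13% called higher and 5.81% lower over all tested genes. All 7 log2 fold changes were positive, beside 5297 of all 11231 tested genes. The positive count was 5 of 7 under quantile normalization or without Myh9 KO 2. It was 6 of 7 without WT 1, without WT 2 or after removal of the trend on GC content and length. The median was 0.18 without WT 1, the lowest of the values with 1 library left out. Ftl1, ferritin light chain, rose from 12434 and 12052 to 15718 and 16002 (a log2 fold change of 0.37 ± 0.02 SE, adjusted p = 0.0179 by limma), and its sign turned under quantile normalization (-0.12, limma adjusted p = 0.0148). Of the 50-base words of Ftl1, 58.4% occur in other genes, mainly its pseudogene. Slc48a1, a heme transporter, rose from 17 and 17 to 22 and 23 (a log2 fold change of 0.38 ± 0.03 SE, adjusted p = 0.0266 by limma), a call lost after removal of the trend on GC content and length. Ftl1 also lost its call without any 1 library, and Slc48a1 without WT 1, WT 2 or Myh9 KO 2. Blvra, biliverdin reductase A, which acts on the product of heme oxygenase, had values of 12 and 14, then 15 and 17, and was not called.

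**Figure D5:**
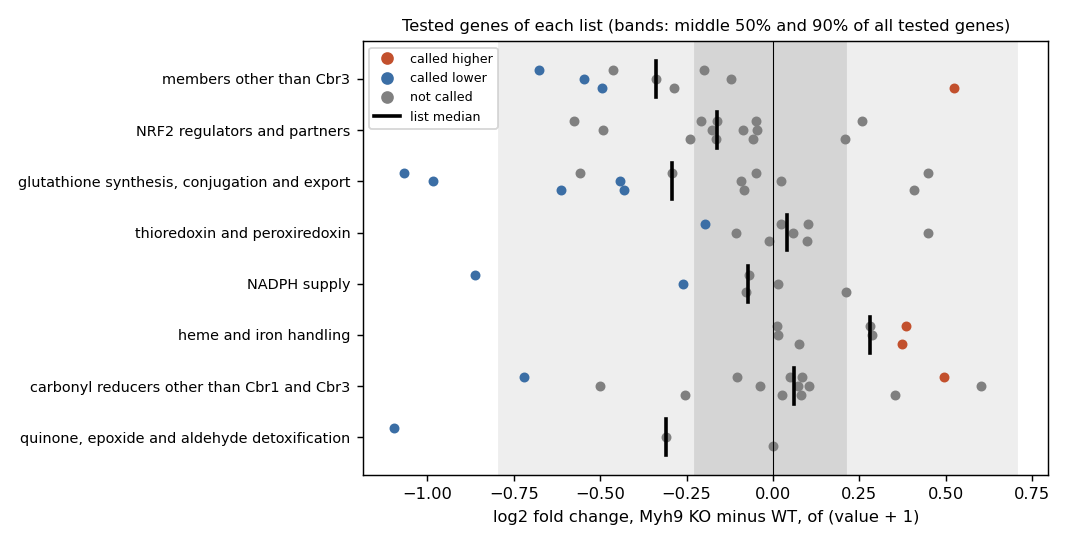
Each point is a tested gene at its log2 fold change (Myh9 KO minus WT, of value + 1), by list, coloured by call, with a bar at the list median; the dark and light bands hold the middle 50% and 90% of all tested genes. The heme and iron points all lie right of 0 on this scale (5 of 7 under quantile normalization or without Myh9 KO 2, 6 of 7 without WT 1, without WT 2 or after removal of the trend on GC content and length), with a median of 0.28, and the glutathione median is -0.29.

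Of 19 other carbonyl reducers, 14 were tested, 1 rose, 1 fell and 12 were not called, with a median of 0.06. These counts are near the background of 5.13% called higher and 5.81% lower over all tested genes. Dhrs4, a peroxisomal carbonyl reductase, fell from 40 and 42 to 25 and 24 (a log2 fold change of -0.72 ± 0.04 SE, adjusted p = 0.0151 by limma). Akr1b3, aldose reductase, rose from 702 and 683 to 964 and 989 (a log2 fold change of 0.50 ± 0.02 SE, adjusted p = 0.0117 by limma). Akr1b3 lies on chromosome 6, and with the median of its chromosome removed the log2 fold change was 0.05 (limma adjusted p = 0.54). The calls of Dhrs4 and Akr1b3 were lost without any 1 library. Of 9 genes of quinone, epoxide and aldehyde detoxification only 3 were tested, and 1 fell. This was Gsto1, an omega-class glutathione transferase, from 113 and 111 to 48 and 56 (a log2 fold change of -1.10 ± 0.10 SE, adjusted p = 0.0277 by limma), with the call lost without WT 1 or WT 2.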

How the data were processed

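Expression was measured in 2 WT and 2 Myh9 KO libraries. The deposited values are whole-number scores. The authors' step that made them is not given in the sources used here. The submitters' processing notes name Bowtie2 2.2.5, RSEM 1.3.0 and bcl2fastq, and the builds mm10 and hg38; which step each served is not given in the sources used here. The totals of 992098 to 992317 fit per-million values with decimals dropped, so no count model was used, and the depth is unknown.

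Genes averaging 1 or more over the 4 libraries (11231 of 50600) were fitted in limma 3.58.1 (R 4.3.3), eBayes with trend, on log2(value + 1), Myh9 KO against WT, with Benjamini-Hochberg adjustment over all of them. The same fit was repeated 25 times with a uniform number between 0 and 1 added to each value, and the median adjusted p was used. A call needs an adjusted p under 0.05 in both. The procedure was tested on simulated data.

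The members, lists, tests and the rule for named genes were chosen with earlier results of these data known. Named genes were the members, Myh9, up to 4 called genes per pathway list (2 with the smallest p where none was called), 3 neighbours on each side of Cbr1 and Cbr3, and the 3 profiles nearest Cbr3. Bach1, Blvra, Slc7a11, Fstl1, Gm6061, Gm16754, Gsk3b and Gstm2 were named after their values were seen. GC content, length and 50-base words came from GENCODE vM21 transcripts, and 92.91% of the 50376 identifiers found there had identical coordinates. Alternatives covered the pseudocount, filter, scaling, chromosomes, GC content and length, replicate block and single libraries left out.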

Additional observations from a re-analysis of the deposited data

How the results depend on the processing

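Over all genes, 576 were called higher and 652 lower, and of the pathway lists 3 and 10. With random decimals alone these were 1243 and 1357, with 5 pathway genes higher and 12 lower. After removal of the trend on GC content and length they were 1112 and 1290, with 8 and 15. Median scaling, which moved the median log2 fold change of all genes to 0.05, gave 1122 higher, so that 58.1% of calls were higher against 46.9% in the main analysis. Without chromosomes 6 and 8, 301 genes were higher and the share was 34.3%. Leaving out 1 library gave 128 to 331 genes higher and 190 to 401 lower, and 0 to 1 pathway genes higher and 1 to 6 lower. A lone library was taken to vary like the others.

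Whether same-numbered libraries share more than a number is not given in the sources used here. Replicate differences in WT and Myh9 KO correlated at r = 0.04 over genes, which cannot show whether libraries were prepared together. With a replicate block in limma, 10 genes were called higher and 44 lower, 0 and 0 of the pathway lists (23 at an unadjusted p under 0.05) and 0 of the 9 tested members (4 at an unadjusted p under 0.05). Without the block these unadjusted counts were 27 and 6, beside 3734 of all 11231 tested genes. The count over all genes with the block is not given. Under the block the limma adjusted p of Nfe2l2, Keap1, Nqo1 and Hmox1 was 0.0723, 0.0801, 0.121 and 0.0569. With random decimals and the block it was 0.00248, 0.00621, 0.000542 and 0.000106. With the replicate block plus removal of the trend on GC content and length, the counts were 1277 and 1382, with 7 pathway genes higher and 15 lower.

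Signs turned for Dopey2 (log2 fold change -0.00057 with random decimals, -0.099 after removal of the trend on GC content and length, with or without the replicate block, and -0.22 to 0.26 with 1 library left out), Gclm (-0.25 to 0.0100 with 1 library left out), Ftl1 (-0.12 under quantile normalization) and Prdx4 (0.067 after removal of the trend on GC content and length, with or without the replicate block). The cause of these changes was not tested. The log2 fold change of Cbr3 ran from -2.20 to -2.04 over 17 alternatives, and the signs of Nfe2l2, Keap1, Nqo1 and Hmox1 held in all of theirs.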
